A study of Mus musculus with 14 samples.

Results

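The solute carrier (Slc) genes encode membrane proteins that move ions, amino acids, neurotransmitters, metals, vitamins and metabolites across membranes. Members were all genes of the hippocampal count table whose symbol starts with Slc and a family number, without the mitochondrial carriers (Slc25a, 23 genes), the glucose transporters (Slc2a, 7 genes) and the monocarboxylate transporters (Slc16a, 10 genes). This left 108 of the 148 Slc genes and of the 7756 genes in the table, in 36 families. The libraries came from the hippocampus of wild-type male C57BL/6J mice, 8 weeks old at the start and kept for 28 days in 1 of 3 atmospheres. The control group (n = 4) breathed 21% oxygen. The intermittent hypoxia (IH) group (n = 5) breathed oxygen alternating between 10 and 21% with a period of 2 min, of which 70 s were hypoxia and 50 s normoxia, for 8 h per day. The sustained hypoxia (SH) group (n = 5) breathed 10% oxygen for 8 h per day. Per the paper, hippocampi were collected after the 28 days and after behavioral tests, which included a foot shock in passive avoidance training. The control libraries came from a preliminary experiment and the IH and SH libraries from the main one, so that the effects of the experiment and of the exposure cannot be told apart in any comparison against the control group. For those control mice the paper names the same strain, age and housing duration, and does not name the tests. The deposited genes had been selected by the authors for a signal that differed from the control group, and percentages of changed genes below hold only within that selection.

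Many solute carriers couple the movement of a solute to the sodium, proton or chloride gradient or exchange one solute for another, and others let a solute pass down its own gradient. In neurons they load transmitters into synaptic vesicles and bring in the amino acids from which glutamate and GABA are made, and in glia, blood vessels and choroid plexus they set the composition of the extracellular and cerebrospinal fluids. Family members that share a number share an ancestor and usually a class of substrate. A location in the plasma membrane holds for only some of the 108 genes: by what is known of their families, 43 are in families of the plasma membrane, 44 in families with members at both surface and internal membranes, and 21 in families of vesicles, Golgi, endoplasmic reticulum or lysosomes, such as Slc17, Slc18, Slc32 and Slc35. Slc4a1ap matches the symbol rule but encodes a protein named for binding to a Slc4 member, not a transporter. Slc8b1 is counted with family 8 among the 43, although its protein is in mitochondria.

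The libraries held 7203660 to 11777100 counts on the genes of the table. Of the 108 members, 102 reached a mean count of 40 or more in each of the groups and were tested, whereas Slc6a20b, Slc47a1, Slc38a4, Slc10a1, Slc27a5 and Slc15a3 were below that minimum. Levels are normalized counts, that is, counts divided by the library size relative to its mean after TMM scaling. Adjusted p-values are from the quasi-likelihood test of edgeR, adjusted by the Benjamini-Hochberg method over all 7338 genes tested, and a gene is called changed at an adjusted p under 0.05. Since the tissue is a mixture of cells, fewer cells of a type and less RNA per cell cannot be told apart. Markers of excitatory neurons, GABAergic interneurons and oligodendrocytes were present in every library. Interneurons and oligodendrocytes also occur outside the hippocampus, and markers of thalamus were present too, so the tissue was taken from the label. The transcript of the choroid plexus, Ttr, was not even among libraries. Its raw count was between 16704 and 71380 in 6 libraries (control 4, IH 1, IH 4, SH 1, SH 2 and SH 5) and between 341 and 3169 in the other 8.

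Between genes, levels can be set side by side only per length. As normalized counts per kilobase of the longest annotated transcript, averaged over all libraries, the highest member was Slc17a7 at 8989, the vesicular glutamate transporter of hippocampal excitatory neurons. Slc22a17, described as a receptor for the siderophore-binding protein lipocalin 2, followed at 5533. The sodium-calcium exchanger Slc8a2 was at 1498, the potassium-dependent sodium-calcium exchanger Slc24a3 at 1198, the bicarbonate transporter Slc4a10 at 1132 and the phosphate transporter Slc20a1 at 950.5. Families 35 and 26 had no member above 242.7 and 135.9, respectively. Most transporters were therefore far below the vesicular glutamate transporter on this scale.

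Compared to the control group, 5 of the 102 members (4.90%) were called in the IH group, beside 10.9% of all genes tested. In the IH group, 4 members rose (Slc38a2, Slc18a2, Slc18b1 and Slc39a2; 6.08% of all genes rose) and 1 fell (Slc26a8; 4.85% of all genes fell). In the SH group, 11 members (10.8%) were called, beside 20.6% of all genes. Of these, 6 rose (Slc38a2, Slc39a10, Slc18a2, Slc4a8, Slc33a1 and Slc38a1; 10.2% of all genes) and 5 fell (Slc45a1, Slc52a2, Slc35c1, Slc17a7 and Slc22a17; 10.5% of all genes). In both comparisons the share of members called was below that of all genes in the table. The 2 comparisons share the control libraries, and their values are given side by side below. The median log2 fold change of the members was -0.04 in the IH group and 0.04 in the SH group, against -0.02 and 0.0035 over all genes tested, and 45 (44.1%) and 66 (64.7%) of the 102 members were above zero, against 48.3% and 50.4% of all genes. At an unadjusted p under 0.05 there were 27 members (26.5%) in IH, beside 29.8% of all genes, and 25 (24.5%) in SH, beside 36.0%. At the limits of the study, a log2 fold change past 0.58 in size with an unadjusted p under 0.05, Slc18a2 was the only member higher in either group (1.55% of all genes in IH and 1.21% in SH), and Slc26a8 the only one lower in the IH group (1.13%); in SH 0 were lower (1.50%). The split into 4 higher and 1 lower in IH was 8 and 4 with DESeq2, 3 and 3 with scaling by the 80th percentile, 6 and 0 with library totals and 4 and 5 with the trends of each library on gene length and GC content removed, and the split of 6 and 5 in SH was 8 and 4 with library totals and 3 and 1 with those trends removed. With only the 8 libraries with low Ttr (3 control, 3 IH and 2 SH), an alternative chosen after the data were seen, 1 member was called in the IH group (Slc18a2) and 0 in the SH group, while over all 7182 genes tested in that fit 26 rose and 21 fell in IH, and 2 rose and 24 fell in SH.

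**Figure D1:**
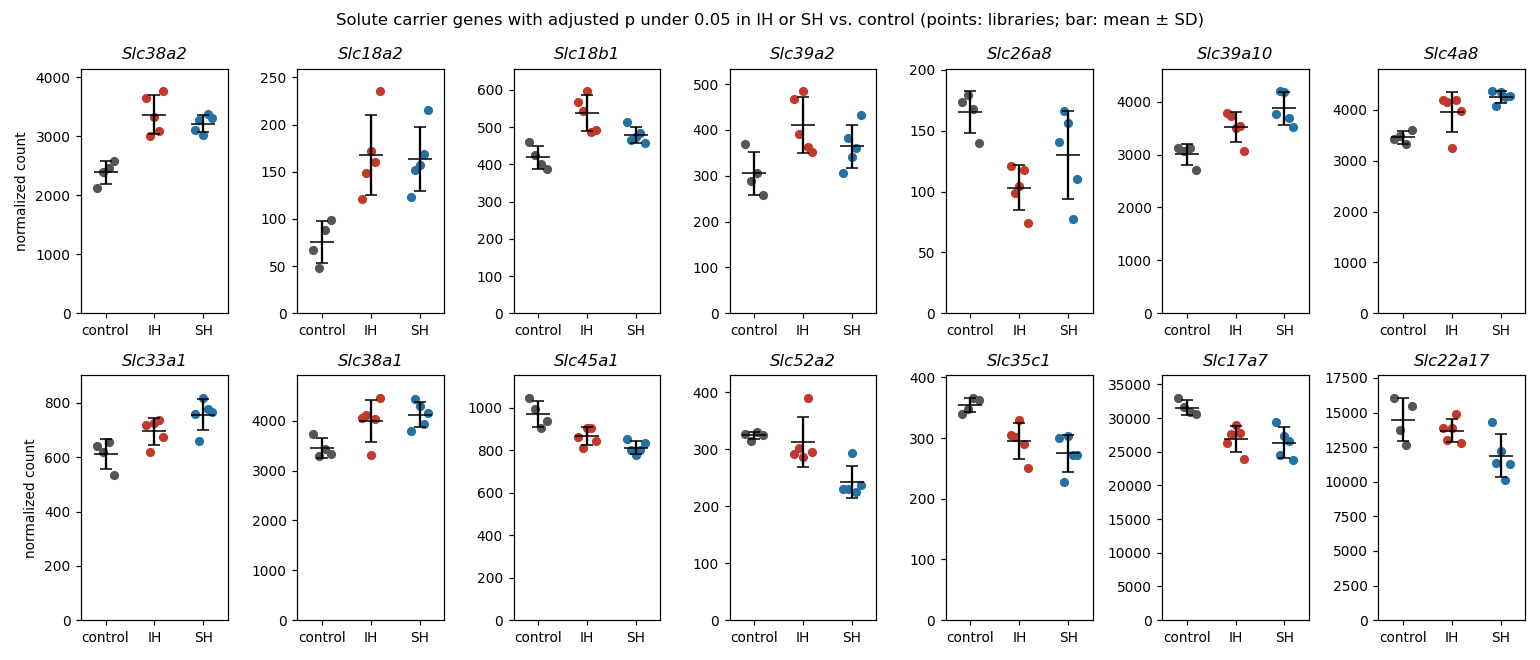
Normalized counts of the 14 solute carrier genes called in the IH or the SH group compared to the control group, with 1 panel per gene, the group on the x axis and the normalized count from 0 on the y axis. Points are libraries and bars are the mean ± SD; Slc38a2 and Slc18a2 are the genes in which all IH and all SH libraries lie above all control libraries, and Slc26a8 is lower in every IH library than in any control library.

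The sodium-coupled neutral amino acid transporters of family 38 bring glutamine, alanine and serine into cells, and glutamine is a source of transmitter glutamate and GABA. Slc38a2 (SNAT2) is the member that cells raise when amino acids are short or osmolarity is high. It lies on chromosome 15 from 96585266 to 96597894 (GRCm39, minus strand). Its normalized counts were 2123, 2398, 2464 and 2575 in the control libraries. They were 3643, 3002, 3335, 3095 and 3772 in the IH libraries and 3103, 3278, 3017, 3375 and 3308 in the SH libraries. Every hypoxic library was above every control library, and the IH and SH libraries overlapped. The control mean was 2390 ± 192 (SD, n = 4), the IH mean 3369 ± 335 (SD, n = 5) and the SH mean 3216 ± 150 (SD, n = 5). On the log2 scale the rise was 0.50 (standard error 0.08, adjusted p = 0.00130) in IH and 0.43 (standard error 0.08, adjusted p = 0.00200) in SH. Slc38a2 passed in both comparisons in every other fit fixed for this work, but it is below the fold limit of the study. With only the 8 libraries with low Ttr it did not pass, at log2 values of 0.53 in IH (adjusted p = 0.0556) and 0.45 in SH (adjusted p = 0.0897).

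Slc38a1 (SNAT1), which carries glutamine into neurons, had 3285 to 3731 in control, 3303 to 4460 in IH and 3797 to 4428 in SH. All SH libraries lay above all control libraries, whereas IH 3 lay among the controls. Its log2 fold change was 0.26 in SH (standard error 0.08, adjusted p = 0.0277) and 0.21 in IH (standard error 0.08, adjusted p = 0.0810). The call in SH ended without control 2 (adjusted p = 0.0824), control 3 (0.0521), control 4 (0.0696), SH 2 (0.0636) or SH 3 (0.0539) and with length and GC trends removed (0.0524), and without IH 3 the IH difference passed (adjusted p = 0.0139). The other tested members of the family, Slc38a6 and the lysosomal Slc38a9, did not pass in either comparison. The 4 tested members of family 38 had log2 fold changes from 0.05 to 0.50 in IH and from 0.15 to 0.43 in SH, where 48.3% and 50.4% of all genes were above zero; both comparisons use the same 4 control libraries.

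The promoters of the 2 genes called in this family are shown because the genes are neighbors on chromosome 15 and both rose in the SH group. A promoter here is the 250 bases before the start of the Ensembl canonical transcript, written 5′ to 3′ on the strand of the gene. 3 motifs were searched on both strands: ACGTG, the core of the hypoxia-inducible factor element, in 19.7% of the 7228 promoters of tested genes that could be read and in 20 of 102 members; TGATGNAA, the composite element bound by ATF4 and C/EBP proteins, in 2.19% of promoters and 5 members; and TAATCC, the core bound by OTX2, in 6.23% and 8 members. None of these motifs contains another. Capitals mark the match in the Slc38a1 promoter, which begins 56 bases before the start, and the Slc38a2 window holds no match. Introns, bases farther upstream and other forms of the hypoxia-inducible factor core, such as GCGTG, were not searched. A window without a match therefore does not show that a gene lacks the site.
Slc38a2 promoter, chr15:96597628-96597877, minus strand: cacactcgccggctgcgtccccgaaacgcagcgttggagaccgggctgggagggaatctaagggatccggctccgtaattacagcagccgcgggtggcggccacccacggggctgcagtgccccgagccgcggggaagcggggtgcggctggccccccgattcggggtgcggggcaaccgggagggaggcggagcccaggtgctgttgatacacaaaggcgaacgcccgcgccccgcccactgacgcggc
Slc38a1 promoter, chr15:96540279-96540528, minus strand: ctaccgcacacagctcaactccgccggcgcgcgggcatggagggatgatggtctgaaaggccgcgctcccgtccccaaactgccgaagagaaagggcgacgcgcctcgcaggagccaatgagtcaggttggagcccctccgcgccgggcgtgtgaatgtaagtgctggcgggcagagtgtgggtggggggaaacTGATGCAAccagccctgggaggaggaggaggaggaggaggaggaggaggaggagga

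Of the 10 listed amino acid transporters known to be induced through the transcription factor ATF4, 5 were in the table (Slc7a1, Slc7a3, Slc7a11, Slc1a5 and Slc38a2). Slc38a2 rose in both groups (6.08% of all genes rose in IH and 10.2% in SH) and the other 4 did not pass. A list of 5 genes is too short to be set apart from these shares. The cystine-glutamate exchanger Slc7a11, a marker of that response and of NRF2 activity, was at 0.16 (log2 fold change; standard error 0.13, adjusted p = 0.420) in IH and 0.13 (standard error 0.13, adjusted p = 0.514) in SH, and both values were below zero with length and GC trends removed (-0.02 and -0.06). The arginine and lysine transporter Slc7a1 was at -0.07 (adjusted p = 0.594) in IH and 0.14 (adjusted p = 0.235) in SH. Slc7a3 was at -0.14 (adjusted p = 0.746) in IH and 0.03 (adjusted p = 0.957) in SH, and Slc1a5, a glutamine exchanger, was at 0.0063 (adjusted p = 0.986) in IH and -0.24 (adjusted p = 0.455) in SH. The summed normalized count of the list was between 4887 and 5337 in control, 5588 and 6652 in IH and 5851 and 6554 in SH. Without Slc38a2 the sum of the other 4 genes was 2453 to 2862 in control, 2253 to 3009 in IH and 2543 to 3537 in SH, and the groups overlapped.

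Vesicular transporters use the proton gradient of the vesicle to fill it with transmitter. Slc18a2 (VMAT2) loads dopamine, noradrenaline, serotonin and histamine, whose neurons have their cell bodies outside the hippocampus. The gene lies on chromosome 19 from 59249238 to 59284695 (plus strand). Its normalized counts were 67.3, 48.3, 88.3 and 99.0 in control, 121, 149, 172, 161 and 236 in IH, and 123, 152, 157, 169 and 216 in SH. The lowest hypoxic library was above the highest control library, and the IH and SH libraries interleaved. Means were 75.7 ± 22.5 (SD, n = 4), 168 ± 42.5 (SD, n = 5) and 163 ± 33.9 (SD, n = 5). On the log2 scale the change was 1.15 (standard error 0.23, adjusted p = 0.00765) in IH and 1.11 (standard error 0.23, adjusted p = 0.00558) in SH, the largest rise among the members in each comparison. The difference held under every alternative fixed for this work. With only the 8 libraries with low Ttr it passed in IH but not in SH (log2 fold change 1.24, adjusted p = 0.0815). At 32.2 normalized counts per kilobase it was a low transcript, and 475 bases of its exons overlap the 3′ neighbor Pdzd8 on the opposite strand, which was not analysed here. Of the 8 markers of thalamus, a neighboring region, none was called in either comparison, and their sum was 2473 to 3667 in control, 2254 to 5334 in IH and 2414 to 4792 in SH. Their part in the result was not tested. The promoter of Slc18a2, the member with the largest rise, holds none of the 3 motifs. Among the other called members, ACGTG was in the windows of Slc39a10, Slc33a1, Slc35c1, Slc17a7 and Slc22a17, all called in SH. It was absent from those of Slc38a1, Slc38a2, Slc18b1, Slc39a2, Slc26a8, Slc4a8, Slc45a1 and Slc52a2. Of all promoters read, 19.7% held ACGTG, and its part in any call was not tested.
Slc18a2 promoter, chr19:59248988-59249237, plus strand: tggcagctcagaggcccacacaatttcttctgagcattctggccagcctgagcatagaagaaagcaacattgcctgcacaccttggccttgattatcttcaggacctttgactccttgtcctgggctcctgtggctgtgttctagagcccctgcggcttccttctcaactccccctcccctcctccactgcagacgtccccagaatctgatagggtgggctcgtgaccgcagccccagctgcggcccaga

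The polyamine transporter Slc18b1 had 387 to 460 in control, 488 to 598 in IH and 457 to 514 in SH. All IH libraries were above all control libraries, and 1 SH library fell below the highest control. Its log2 fold change was 0.36 (standard error 0.08, adjusted p = 0.0133) in IH and 0.19 (standard error 0.08, adjusted p = 0.107) in SH; the IH value did not pass with length and GC trends removed (0.25, adjusted p = 0.119).

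The main vesicular glutamate transporter of the hippocampus, Slc17a7 (VGLUT1), was lower in the SH group. Its normalized counts were 33016, 31625, 30860 and 30555 in control, 26248, 27626, 28901, 27826 and 23927 in IH, and 29424, 24551, 27369, 26596 and 23735 in SH. Every hypoxic library lay below every control library in both groups. The control mean was 31514 ± 1098 (SD, n = 4), the IH mean 26906 ± 1914 (SD, n = 5) and the SH mean 26335 ± 2271 (SD, n = 5). Its log2 fold change was -0.26 (standard error 0.07, adjusted p = 0.0215) in SH, which passed, and -0.23 (standard error 0.07, adjusted p = 0.0542) in IH, which did not. The SH value did not pass without control 1 (adjusted p = 0.0691) or control 2 (0.0551), and with length and GC trends removed it shrank to -0.05 (adjusted p = 0.635). The IH value passed without IH 3 (adjusted p = 0.0385), SH 1 (0.0370) or SH 5 (0.0473), by DESeq2 (0.0240) and with scaling by the 80th percentile (0.0393). The sum of the 9 markers of excitatory neurons was 113624 to 131050 in control, 105912 to 129858 in IH and 101356 to 133485 in SH. Of these markers only Prox1, of dentate granule cells, was called, and it rose in both groups (log2 fold change 0.66, adjusted p = 0.0169 in IH and 0.81, adjusted p = 0.00387 in SH). Their part in the fall of Slc17a7 was not tested.

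The other vesicular transporters in the table did not pass. Slc17a6 (VGLUT2), of thalamic and other subcortical inputs, was at 0.54 on the log2 scale (standard error 0.29, adjusted p = 0.214) in IH and 0.58 (standard error 0.29, adjusted p = 0.163) in SH. Its libraries spread from 192 to 414 in control, 277 to 649 in IH and 326 to 685 in SH. Slc17a8 (VGLUT3) was at 0.28 (adjusted p = 0.520) in IH and 0.11 (adjusted p = 0.817) in SH, and the GABA and glycine vesicle transporter Slc32a1 at -0.05 (adjusted p = 0.814) in IH and -0.21 (adjusted p = 0.251) in SH. Of the 10 listed vesicle-loading genes, 5 were in the table, of which 1 rose in IH (6.08% of all genes rose), and 1 rose and 1 fell in SH (10.2% and 10.5% of all genes). A list of 5 genes is too short to be set apart from these shares.

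Uptake at the plasma membrane was thinly covered. Of the 8 listed glutamate and GABA uptake genes only Slc1a6 (EAAT4) and Slc6a13 (GAT2) were in the table, and neither was called. In SH, the log2 difference of Slc1a6 from control was -0.18 (standard error 0.14, adjusted p = 0.369) and 0.01 with length and GC trends removed, and in IH it was -0.13 (adjusted p = 0.547). Slc6a13 was at -0.14 (standard error 0.26, adjusted p = 0.737) in IH and 0.01 (adjusted p = 0.980) in SH. Of the 7 genes of glycine and monoamine uptake only Slc29a4 was in the table, and it was not called. Of the 9 cation-chloride cotransporters only Slc12a2 (NKCC1), which raises intracellular chloride, was in the table. Its normalized counts were 1371, 1680, 1636 and 2695 in control, 2377, 1909, 2011, 2574 and 2891 in IH, and 3036, 2559, 1868, 2443 and 2863 in SH, so that control 4, the library with the highest Ttr, lay inside the hypoxic range and the other 3 control libraries below it. Compared to control, the log2 difference was 0.35 (standard error 0.18, adjusted p = 0.205) in IH and 0.47 (standard error 0.18, adjusted p = 0.0782) in SH. Without control 4 both differences passed (0.59, adjusted p = 0.0332 and 0.71, adjusted p = 0.0106), as did the SH difference without SH 3 (0.56, adjusted p = 0.0416), with log2 Ttr as a covariate (0.39, adjusted p = 0.0408) and by DESeq2 (0.47, adjusted p = 0.0302).

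**Figure D2:**
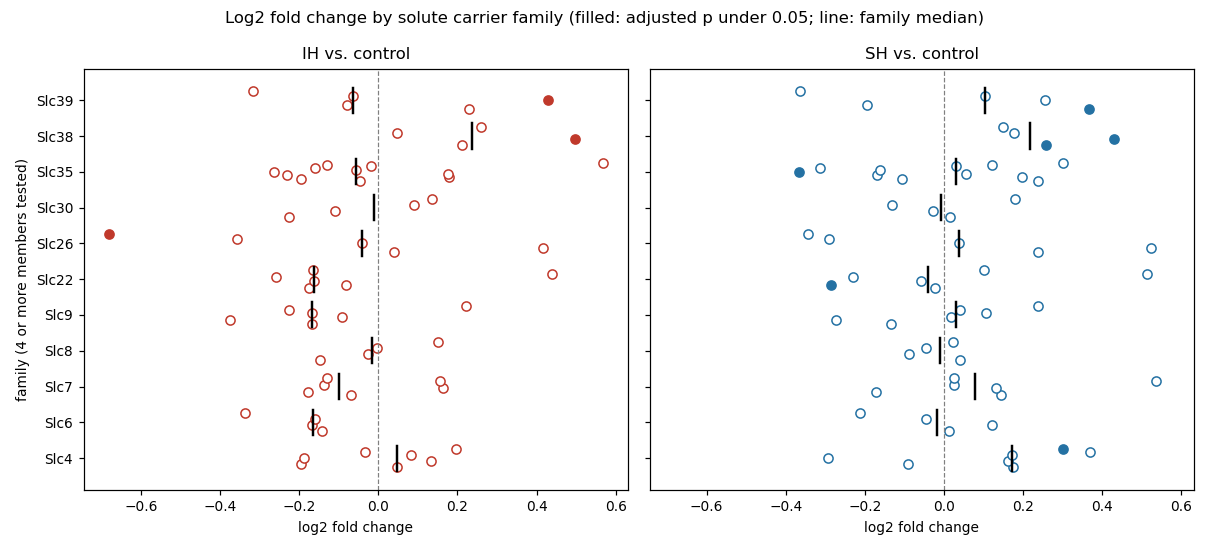
Log2 fold change of each tested member compared to the control group (left, IH; right, SH) on the x axis, by family on the y axis, for families with 4 or more tested members. Filled points have an adjusted p under 0.05 and lines are family medians; family 38 has 4 of 4 members above zero in both panels and family 9 has 1 of 6 in IH and 4 of 6 in SH, where 48.3% and 50.4% of all genes lie above zero.

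Metal transporters of family 39 carry zinc into the cytosol, and those of family 30 carry it out. Of 27 listed zinc, iron and copper transporters, 11 were in the table, of which 1 rose in IH (Slc39a2; 6.08% of all genes rose) and 1 in SH (Slc39a10; 10.2% of all genes), and none fell, which is near the share of all genes. Slc39a10 (ZIP10) had 3124, 3060, 3122 and 2715 in control, 3789, 3727, 3498, 3539 and 3068 in IH, and 3771, 4205, 4176, 3686 and 3523 in SH. All SH libraries lay above all control libraries, and IH 5 alone of the IH group lay among the controls. Against control the log2 fold change was 0.37 (standard error 0.07, adjusted p = 0.00421) in SH and 0.23 (standard error 0.07, adjusted p = 0.0551) in IH. The SH value was 0.15 (adjusted p = 0.264) with length and GC trends removed, and the IH value passed without IH 5 (adjusted p = 0.0261), by DESeq2 (0.0303) and with library totals (0.0485). Slc39a10 is also known from brain endothelium, for which 3 of 10 markers rose and none fell in SH, with a summed level of 8598 to 9591 in SH against 7429 to 8415 in control; in IH 1 marker rose and 1 fell, with a sum of 7916 to 8281. Their part in the result was not tested.

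Slc39a2 (ZIP2) had 369, 288, 306 and 258 in control, 467, 390, 485, 362 and 352 in IH, and 307 to 432 in SH. The highest control library exceeded 2 IH libraries (IH 4 and IH 5). Its IH value on the log2 scale, 0.43 (standard error 0.13, adjusted p = 0.0493), was at the limit of the threshold and was not called in 16 of 24 other fits, among them leaving out control 2 (adjusted p = 0.121), control 3 (0.0830), control 4 (0.124), IH 1 (0.105), IH 2 (0.0657), IH 3 (0.0826), SH 2 (0.0563), SH 3 (0.0565) or SH 4 (0.0588). In SH it was at 0.26 (adjusted p = 0.177). Its exons share 500 bases with Mettl17 on the same strand, which was, on the log2 scale, at 0.29 (adjusted p = 0.0758) in IH and 0.06 (adjusted p = 0.692) in SH, and reads there could be assigned to either gene. The iron exporter Slc40a1 was at -0.42 (standard error 0.13, adjusted p = 0.0526) in IH, just above the threshold. It passed without control 3 (adjusted p = 0.0472), IH 5 (0.0346) or SH 4 (0.0387), with length and GC trends removed (-0.52, adjusted p = 0.0369), by DESeq2 (adjusted p = 0.0329) and when scaled to the 80th percentile (0.0483).

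Bicarbonate transporters (family 4) and sodium-proton exchangers (family 9) hold the pH of neurons and glia. Of the 15 listed genes of these functions, 9 were in the table, of which Slc4a8 rose in SH (10.2% of all genes rose) and none was called in IH. Slc4a8 (NDCBE) is a sodium-driven chloride-bicarbonate exchanger of glutamatergic nerve endings. It had 3418, 3479, 3320 and 3613 in control, 4193, 4159, 3258, 4191 and 3987 in IH, and 4365, 4075, 4348, 4249 and 4264 in SH. All SH libraries and 4 of the 5 IH libraries lay above all control libraries, and IH 3 lay below them. In SH the log2 fold change was 0.30 (standard error 0.07, adjusted p = 0.00717), a call that held in every other fit fixed for this work, though not at the fold limit of the study, and was lost with only the 8 libraries with low Ttr (0.33, adjusted p = 0.128), and 0.20 (standard error 0.07, adjusted p = 0.0725) in IH, which passed without IH 3 (0.26, adjusted p = 0.00409), with length and GC trends removed (0.17, adjusted p = 0.0332) and by DESeq2 (adjusted p = 0.0490). In family 9 none was called, with log2 fold changes from -0.37 to 0.22 in IH and from -0.27 to 0.24 in SH.

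Most sodium-calcium exchangers of families 8 and 24 remove calcium from the cell after activity, but not Slc8b1 and Slc24a5, which are in internal membranes. All 7 members in the table, of 9 listed, were without a call, beside 10.9% of all genes called in IH and 20.6% in SH. A list of 7 genes is too short to be set apart from these shares. The medians of families 8 and 24 were -0.02 and 0.19 in IH and -0.01 and 0.22 in SH. Slc8a2 and Slc24a3, which had the highest levels per kilobase of these families, are among the 7.

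Besides Slc17a7, the members that fell in SH were Slc35c1, Slc52a2, Slc45a1 and Slc22a17. The GDP-fucose transporter of the Golgi, Slc35c1, had 340, 349, 366 and 363 in control, 305, 302, 330, 290 and 250 in IH, and 300, 227, 304, 272 and 272 in SH. All libraries of both hypoxic groups were below all control libraries. In SH the log2 fold change was -0.37 (standard error 0.10, adjusted p = 0.0204), and it was -0.26 (standard error 0.10, adjusted p = 0.0988) in IH; the SH value was lost without control 4 (adjusted p = 0.0516) and with length and GC trends removed (-0.23, adjusted p = 0.165). Of 26 listed genes of family 35, which carry nucleotide sugars and related solutes, 11 were in the table. Only Slc35c1 was called in SH (10.5% of all genes fell), and none in IH (10.9% of all genes were called). Of the 11, 3 were above zero in IH and 6 in SH, beside 48.3% and 50.4% of all genes. A list of 11 genes is too short to be set apart from these shares.

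The riboflavin transporter Slc52a2 had 327, 315, 330 and 325 in control, 291, 302, 286, 391 and 295 in IH, and 230, 229, 293, 225 and 237 in SH. The SH libraries lay below all controls. IH 4 lay above all controls and the other IH libraries below them. Its log2 fold change was -0.42 (standard error 0.11, adjusted p = 0.0158) in SH and -0.05 (standard error 0.11, adjusted p = 0.779) in IH. The fall in SH held in every other fit fixed for this work, but not at an adjusted p under 0.01 or at the fold limit of the study, and was lost with only the 8 libraries with low Ttr (-0.33, adjusted p = 0.221). Its exons overlap Fbxl6 on the opposite strand by 641 bases, and Fbxl6 was at -0.18 (adjusted p = 0.239) in SH.

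Slc45a1, a proton-coupled sugar transporter, had 905 to 1047 in control, 808 to 907 in IH and 778 to 852 in SH. The SH libraries were below all controls and the upper IH libraries overlapped the lowest control. On the log2 scale, SH was at -0.26 (standard error 0.06, adjusted p = 0.0123) and IH at -0.17 (standard error 0.06, adjusted p = 0.0994), and the SH value did not pass with length and GC trends removed (-0.12, adjusted p = 0.176). Slc33a1, the acetyl-CoA transporter of the endoplasmic reticulum, had 533 to 655 in control, 618 to 738 in IH and 661 to 819 in SH. Its log2 fold change was 0.30 (standard error 0.08, adjusted p = 0.0202) in SH and 0.18 (standard error 0.08, adjusted p = 0.160) in IH, with the SH value lost without control 4 (0.24, adjusted p = 0.0631) and with length and GC trends removed (0.21, adjusted p = 0.138).

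The anion exchanger Slc26a8, known mainly from sperm, had 174, 180, 168 and 140 in control, 121, 99.0, 105, 118 and 74.1 in IH, and 141, 166, 157, 77.5 and 110 in SH. All IH libraries lay below all controls, and the SH libraries spread across both ranges. Against control the log2 fold change was -0.68 (standard error 0.21, adjusted p = 0.0448) in IH and -0.34 (standard error 0.20, adjusted p = 0.238) in SH. The IH call was lost in 13 of 24 other fits, among them leaving out any 1 of the control or IH libraries (adjusted p between 0.0522 and 0.109). Slc22a17 had 12656 to 16069 in control, 12786 to 14869 in IH and 10140 to 14344 in SH. Its groups overlapped in both comparisons, and the log2 fold change was -0.29 (standard error 0.09, adjusted p = 0.0430) in SH and -0.08 (standard error 0.09, adjusted p = 0.577) in IH. The SH call was lost in 14 of 24 other fits, among them leaving out any 1 of control 1, control 2, control 4, IH 1, IH 2, IH 4, SH 2, SH 3, SH 4 or SH 5 (adjusted p between 0.0516 and 0.136), and with length and GC trends removed the sign turned in both comparisons (0.0054 in SH and 0.12 in IH).

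Compared to the SH group, in which mice of the same experiment breathed the same low oxygen without cycling during the exposure, none of the 102 members was called in the IH group by edgeR, beside 2.37% of all genes (1.47% higher and 0.899% lower); at an unadjusted p under 0.05 there were 15 members (14.7%), beside 15.8% of all genes. At the limits of the study there were 0 members as well, beside 0.572% of all genes higher and 0.409% lower. The median log2 fold change of the members was -0.07, against -0.0039 over all genes, and 37 of 102 (36.3%) were above zero, against 48.9% of all genes. DESeq2 called 1 member higher and 3 lower. These 4, named here after their values were seen, were the riboflavin transporter Slc52a2, higher in IH (0.37, standard error 0.10, adjusted p = 0.0818 by edgeR and 0.0418 by DESeq2), and 3 that were lower. The lower ones were the phosphate transporter Slc20a2 (-0.26, standard error 0.07, adjusted p = 0.0562 and 0.0173), the iron exporter Slc40a1 (-0.48, standard error 0.13, adjusted p = 0.0583 and 0.0159) and the neuronal amino acid transporter Slc6a15 (-0.29, standard error 0.08, adjusted p = 0.0839 and 0.0304).

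Slc20a2 had 1183, 1075, 1098, 1149 and 1105 in IH and 1358, 1508, 1356, 1226 and 1250 in SH, without overlap, and 1139 to 1292 in control. Slc40a1 had 170, 167, 204, 210 and 238 in IH and 283, 288, 294, 214 and 301 in SH, with SH 4 inside the IH range, and 231 to 286 in control. Without IH 5 or SH 4 its difference passed in edgeR (adjusted p = 0.0396 and 0.0368). Slc40a1 is also known from brain endothelium, whose 10 markers had a lower sum in every IH library than in any SH library (the ranges are given with Slc39a10), with 1 of them called, Itm2a, lower in IH (-0.60, adjusted p = 0.000324). Their part in the result was not tested. Slc6a15 had 1524, 1389, 1416, 1276 and 1155 in IH and 1589, 1842, 1801, 1562 and 1463 in SH, with SH 5 inside the IH range. Slc52a2 passed without SH 3 (0.44, adjusted p = 0.0465). Slc20a2 passed with length and GC trends removed (-0.24, adjusted p = 0.0442). Of the 2 genes that rose in both comparisons against control, neither passed between the hypoxic groups: the log2 difference was 0.07 (standard error 0.07, adjusted p = 0.737) for Slc38a2 and 0.04 (standard error 0.21, adjusted p = 0.972) for Slc18a2, whose sign turned without IH 5 (-0.12) or SH 1 (-0.05). A p-value above the threshold does not show that intermittent and sustained hypoxia gave equal levels.

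**Figure D3:**
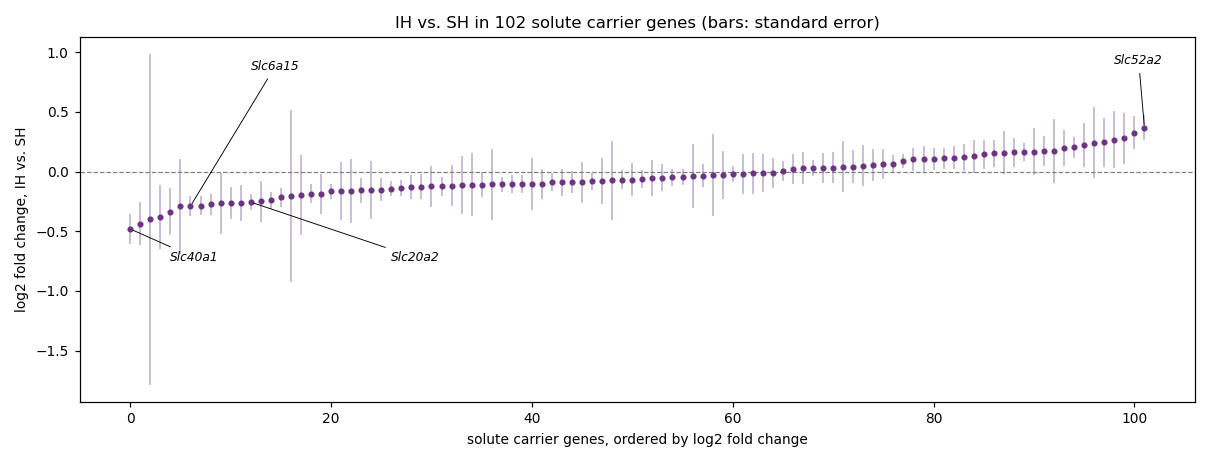
Log2 fold change between IH and SH (positive, higher in IH) on the y axis for the 102 tested solute carrier genes, ordered from lowest to highest on the x axis, with bars for the standard error. Of the 102 genes 37 lie above zero; Slc40a1, at -0.48, is the lowest and Slc52a2, at 0.37, the highest, and none has an adjusted p under 0.05 by edgeR.

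The largest differences among libraries were not between groups. Over the members the median within-group SD of the log2 level was 0.21, against 0.18 over all genes tested, and it was 3.29 for Slc4a5, the second highest of all genes, and 1.34 for Slc13a4. Ttr encodes transthyretin, the main secreted protein of choroid plexus epithelium, the tissue that makes cerebrospinal fluid and borders the hippocampus. Differences between groups in its mean log2 level did not pass an exact permutation test (2-sided; difference 1.28 for IH and control, p = 0.563; 1.34 for SH and control, p = 0.524; -0.07 for IH and SH, p = 0.984). The direction against control turns with the scale: in the edgeR fit, which follows the mean count, the log2 fold change of Ttr was -0.24 in IH (adjusted p = 0.932) and -0.22 in SH (adjusted p = 0.937). In a fit with group and log2 Ttr, 7 of the 102 members (6.86%) had a slope that passed, beside 1.62% of all genes, and at an unadjusted p under 0.05 there were 14 (13.7%), beside 6.80%. The 7 were Slc4a5, Slc4a2, Slc13a4, Slc29a4, Slc37a2, Slc7a10 and Slc12a2. All of these slopes were positive, and none of these genes was called between groups. Without control 4, the library with the highest Ttr, 2 members passed (Slc4a2, adjusted p = 0.00171, and Slc13a4, adjusted p = 0.0485), and Slc4a5 was below the minimum count in the control group and was not tested.

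Slc4a5 (NBCe2) is the sodium-bicarbonate cotransporter on the ventricular face of choroid plexus cells. Its normalized counts were 4.55, 15.5, 0 and 751 in control, 376, 10.0, 5.96, 515 and 21.3 in IH, and 716, 274, 4.86, 12.5 and 208 in SH. The 6 libraries with high Ttr were between 208 and 751 and the other 8 between 0 and 21.3, in every group alike. The slope was 1.06 on log2 Ttr (standard error 0.04, adjusted p = 4.42e-11). Slc4a5 reached the minimum mean count only through its high-Ttr libraries; its slope was also 1.06 when no genes were filtered out. Slc4a5 lies on chromosome 6 from 83196810 to 83281927 (plus strand).

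Slc13a4, a sodium-sulfate cotransporter of choroid plexus and leptomeninges, was at 218 to 624 in the high-Ttr libraries and 45.3 to 210 in the others (slope 0.37, standard error 0.05, adjusted p = 0.000425). Among the libraries with low Ttr, SH 3 and SH 4 had 210 and 149, IH 5 had 167 and the rest 63.7 or less. Slc4a2 (AE2), the basolateral chloride-bicarbonate exchanger, was at 1034 to 2187 and 689 to 1026 (slope 0.19, standard error 0.02, adjusted p = 2.03e-05). Its exons overlap Fastk on the opposite strand by 3669 bases. The sugar-phosphate exchanger Slc37a2 was at 114 to 271 and 58.0 to 112 (slope 0.20, standard error 0.03, adjusted p = 0.00155). These 4 genes were higher in all 6 high-Ttr libraries than in any of the other 8, as were 0.695% of all genes, and no member was lower without overlap (0.0409% of all genes).

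The other 3 followed Ttr less steeply and with overlapping libraries. The monoamine transporter Slc29a4 (PMAT) had a slope of 0.10 (standard error 0.02, adjusted p = 0.000896), Slc12a2 one of 0.08 (standard error 0.02, adjusted p = 0.0329) and the astrocytic serine and glycine transporter Slc7a10 one of 0.06 (standard error 0.01, adjusted p = 0.0218). Without control 4 the slopes of Slc29a4 (adjusted p = 0.0660), Slc37a2 (0.108), Slc12a2 (0.663) and Slc7a10 (0.446) did not pass. The slope of Slc7a10 was also lost without IH 4 (adjusted p = 0.0737), SH 1 (0.0734) or SH 3 (0.0631) and with length and GC trends removed (0.0573), and that of Slc12a2 without control 2 (0.0596), control 3 (0.0596), IH 2 (0.0726), IH 3 (0.0740), IH 4 (0.0593), SH 1 (0.0970) or SH 3 (0.0950). Exons of Slc7a10 overlap Lrp3 on the opposite strand by 4969 bases. The member with the next smallest adjusted p, Slc1a5, was at 0.08 (adjusted p = 0.210).

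Ttr was not the only choroid plexus transcript that varied. The other 17 of the 18 listed choroid plexus markers all had a slope that passed, and their sum, without Ttr, was 18206 to 54189 in the 6 high-Ttr libraries and 5269 to 10573 in the other 8. Some of these markers, such as Kcnj13, may have reached the minimum mean count only through high-Ttr libraries, as Slc4a5 did. The lowest values of Kcnj13 were 2.32 in control, 12.2 in IH and 0 in SH. Others, such as Enpp2, were at 2580 or more in every library. Of the 10 markers of leptomeninges and perivascular fibroblasts 1 had a slope that passed, with a sum of 2648 to 6359 and 2488 to 5263. Of the 11 members known from choroid plexus, 5 followed Ttr, beside 1.62% of all genes, and without control 4 only Slc4a2 and Slc13a4 of these passed. The slopes of the genes called between groups were between -0.02 and 0.03 and none passed, the smallest unadjusted p being 0.0480 for Slc22a17. No call in either comparison against control was lost with log2 Ttr as a covariate, whereas with only the 8 libraries with low Ttr all calls but that of Slc18a2 in IH were lost. The promoters of Slc4a5 and Slc13a4, the members with the steepest slopes, hold none of the 3 motifs, TAATCC included.
Slc4a5 promoter, chr6:83214107-83214356, plus strand: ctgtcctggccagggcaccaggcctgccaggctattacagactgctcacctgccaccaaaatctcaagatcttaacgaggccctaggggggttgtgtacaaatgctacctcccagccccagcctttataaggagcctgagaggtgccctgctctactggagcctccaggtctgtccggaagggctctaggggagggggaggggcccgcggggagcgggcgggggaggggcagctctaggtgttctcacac
Slc13a4 promoter, chr6:35285072-35285321, minus strand: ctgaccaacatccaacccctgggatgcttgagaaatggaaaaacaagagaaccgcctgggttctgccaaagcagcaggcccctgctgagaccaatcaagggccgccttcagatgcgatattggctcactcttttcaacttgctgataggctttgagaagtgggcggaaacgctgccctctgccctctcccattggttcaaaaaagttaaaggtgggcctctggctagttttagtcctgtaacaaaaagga

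**Figure D4:**
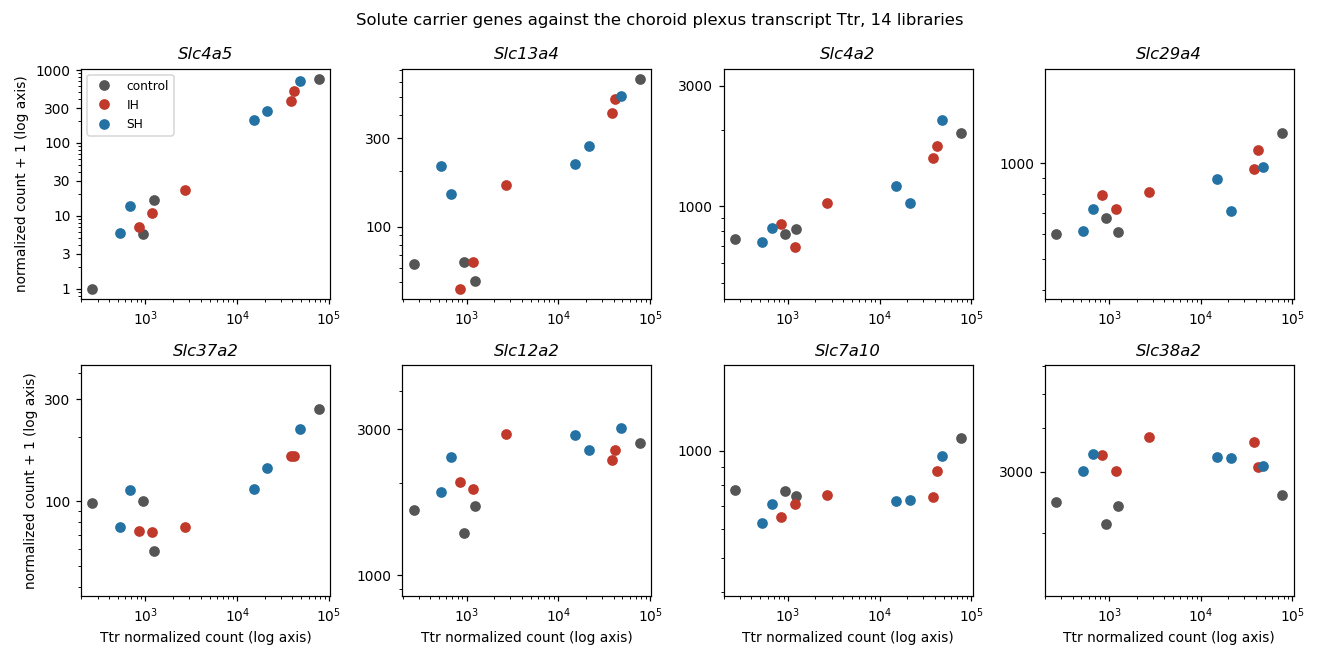
Normalized count plus 1 of 8 solute carrier genes (y axis, log) against the normalized count of Ttr (x axis, log) in the 14 libraries, colored by group. Slc4a5 follows Ttr over the whole range, the 6 high-Ttr libraries being between 208 and 751 and the others at 21.3 or less, whereas Slc38a2 separates the control libraries from the IH and SH libraries at any Ttr level.

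Of 7 members known from brain endothelium 1 rose in SH (Slc39a10) and none was called in IH. Of 5 known from astrocytes and 7 tested of the 8 known from meninges none was called in either comparison. These lists are too short to be set apart from the 10.9% and 20.6% of all genes called in IH and SH. Among cell type markers, 3 of 6 microglial genes fell in SH, with a summed level of 3672 to 4535 against 4866 to 5404 in control and 4494 to 5609 in IH. Of 9 oligodendrocyte genes, 3 astrocyte genes and 7 interneuron genes, 1, 1 and 1 rose in SH and 1, 1 and 0 in IH, and none fell. No marker of choroid plexus or leptomeninges was called between groups.

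Annotated exons of 13 of the 21 members called or following Ttr overlap another gene, and for 6 of them that gene was in the table. The libraries were directional, but whether the counting used strand is not given in the sources used here, so that reads of such pairs may not be separated. Slc6a20a and Slc6a20b are near-identical copies whose reads could be split between them; Slc6a20a was not called and Slc6a20b was below the minimum count.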

How the data were processed

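Hippocampal RNA of 4 control, 5 IH and 5 SH mice was sequenced. The authors trimmed reads with fastp 0.23.4, aligned them to GRCm39 with HISAT2 2.2.1 and quantified genes with StringTie 2.2.1, per the submitters' notes. The authors deposited 1 table of estimated counts per gene, without normalization, for 7756 genes. Per the methods these were protein-coding genes with a count above 40 in each group and a difference from control in their processed signal. The 10 genes with values that were not whole numbers were rounded.

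The solute carrier genes, the lists of genes and the motifs were chosen with earlier results of these data known. Counts were scaled by TMM and fitted with edgeR 4.0.16 (R 4.3.3), the 3 groups together, over 7338 genes whose mean count reached 40 in each of the groups, and the procedure was tested on simulated data. Standard errors were taken as the size of the log2 fold change over the root of its F statistic. The slope on Ttr is the coefficient of its log2 normalized count, beside group. The log2 levels behind the within-group SD and the correlations of same-numbered pairs had an offset of 1. Named genes are the called members, those past the limits of the study, the members of the lists of glutamate and GABA uptake, vesicle loading, cation-chloride cotransport and ATF4-induced amino acid transporters, and the 8 with the smallest p for the slope. Gene locations, lengths and promoters are from GENCODE vM39, with a length and GC content for 7725 genes. Family roles and locations are general knowledge.

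Alternatives were DESeq2 1.42.0, scaling by library total or by the 80th percentile, no filter, filterByExpr, a fit of the 2 groups alone, a block for the replicate number, removal of length and GC trends by loess (span 0.5), log2 Ttr as a covariate, other thresholds, and leaving out each library. A fit of only the 8 libraries with a raw Ttr count under 5000 was added after the data were seen. No libraries were duplicates: in 26 pairs of the same group, the smallest chi-square was 8.96 per degree of freedom. The total count of 7203660 to 11777100 per library limits the precision of low genes. Nothing in the sources used here says that libraries were technical repeats, and each was taken as 1 mouse.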

Additional observations from a re-analysis of the deposited data

Results flagged for a closer look

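In 105 combinations of a gene and a group, 12 had a library far from the rest of its group, at a limit that chance passes in about 1 in 20 groups. The genes were the named genes and further members whose values were followed across the other fits, such as Slc40a1. Control 4, the library with the highest Ttr, accounts for 7 of them. Its Ttr was 77671 normalized counts, against 264 to 1240 in the other control libraries. Its Slc4a5 was 751 (others 0 to 15.5), Slc4a2 1948 (743 to 817), Slc13a4 624 (50.2 to 63.7), Slc29a4 1246 (597 to 672) and Slc7a10 1087 (746 to 772), which are members whose level followed Ttr. Its Slc39a10 was 2715 (3060 to 3124), below the others.

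In IH 3, Slc4a8 was 3258 (3987 to 4193 in the other IH libraries) and Slc7a11 908 (1345 to 1486). Slc52a2 was 391 in IH 4 (286 to 302) and 293 in SH 3 (225 to 237). Slc40a1 was 214 in SH 4 (283 to 301).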

How the results depend on the processing

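Slc38a2 and Slc18a2 in both comparisons against control, and Slc4a8 and Slc52a2 in SH, kept their direction and their call in all other fits fixed for this work; of these only Slc18a2 also passed the limits of the study, and Slc52a2 did not pass an adjusted p of 0.01; with only the 8 libraries with low Ttr, only Slc18a2 in IH was still called. The members higher in IH (4) were 8 with DESeq2, 2 at an adjusted p under 0.01, 1 at the limits of the study and 1 with the 8 libraries. Those lower in IH (1) were 4 with DESeq2, 0 with library totals, 3 with the 80th percentile, 5 with length and GC trends removed, 0 at 0.01 and 0 with the 8 libraries. Those higher in SH (6) were 3 with trends removed, 1 at the limits of the study and 0 with the 8 libraries, and those lower in SH (5) were 1, 0 and 0, and 0 at 0.01. For IH and SH, DESeq2 gave 1 higher and 3 lower, and trends removed gave 1 lower, in place of 0. The cause was not tested.

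Leaving out 1 library gave 3 to 6 higher and 0 to 3 lower members in IH, 5 to 8 and 3 to 6 in SH, 0 to 1 and 0 to 2 between IH and SH, and 2 to 7 with a slope on Ttr. Lower in IH was 0 without control 1, 2 or 4 or IH 1, 2 or 4, and 3 without IH 3. Lower in SH was 3 without control 1, 2 or 4. Between IH and SH, 1 was higher without SH 3, 2 were lower without IH 5 and 1 without SH 4. The slope count was 2 without control 4. The sign turned with trends removed for Slc22a17 (0.12 in IH, 0.0054 in SH), Slc7a11 (-0.019 in IH, -0.058 in SH) and Slc1a6 in SH (0.011), and for Slc18a2 between IH and SH when 1 library was left out (-0.12 to 0.17).

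Replicate numbers are shared by the groups, and the labels do not say whether they pair the libraries. Deviations from the group means correlated between -0.30 and 0.46 over 13 same-numbered pairs, 6 of them over 0.1. Pairs with different numbers were not examined, so these values do not settle whether the numbers pair libraries. With the replicate block the counts were 7 higher and 2 lower in IH, 8 and 6 in SH, 0 and 1 between IH and SH, and 5 with a slope on Ttr. Slc39a2 and Slc26a8 in IH, Slc38a1 in SH and the slopes of Slc7a10 and Slc12a2 were then not called, and Slc39a10 in IH, Slc32a1 in SH and Slc6a15 between IH and SH were; Slc7a3 in IH turned to 0.0088.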
